A study of Mus musculus with 14 samples.

Results

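The 33 genes described here encode the subunits of the mouse Mediator complex. They were chosen by symbol, by a rule that uses no measured value, from the 22680 genes that carry a symbol in the RNA-seq tables: *Med1*, *Med4*, *Med6* to *Med31* where such a subunit exists, the paralogs *Med12l* and *Med13l*, and the genes of the associated kinases and cyclin, *Cdk8*, *Cdk19* and *Ccnc*. All 33 were measured, and each was found at a single locus.

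Mediator is a large co-activator that connects transcription factors bound at enhancers with RNA polymerase II (POL2) at promoters. Its core consists of a head and a middle module, which contact the polymerase, and a tail, which receives activators, and MED14 runs through all of them as a backbone. A separable kinase module, built of CDK8 or CDK19, cyclin C, MED12 or MED12L and MED13 or MED13L, docks onto the core and blocks its contact with the polymerase. Changes in *MED12* and *MED13L* are known causes of inherited disorders of brain development.

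The samples came from a study of TAF9B, a TAF paralog found in TFIID and in the co-activator SAGA. ES cells of the C57BL/6 line JM8, labelled wild type, and of the Taf9b_BG10 clone, labelled TAF9B -/-, were sequenced undifferentiated and as embryoid bodies (EBs) at 2, 4 and 6 days of differentiation into motor neurons with retinoic acid and the smoothened agonist SAG. The knockout line is a single clone, so line and genotype cannot be told apart. In it a *LacZ-Neo* cassette stands in place of the coding exons of the X-linked *Taf9b* gene. The tissues were whole lumbar spinal columns of newborn wild type and TAF9B -/- littermates, which hold bone, muscle and blood besides nervous tissue, and the spinal cord of newborn wild type mice. The labels of these tissue samples also carry the names of the ES cell lines, and their titles and the study's methods were followed here. POL2 and TAF9B were mapped by ChIP-seq in EBs of wild type cells of the line HBG3, which carries a GFP reporter driven by the motor neuron promoter *Mnx1*, after 8 days of differentiation.

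Each of the 11 RNA-seq conditions is 1 library, so no comparison of conditions can be tested, and values are given side by side. They are FPKM values (fragments per transcript, corrected for transcript length and for the size of the library), the read depth behind them is unknown, and 32 to 33 members in the tissues and 32 in every culture library lay above 1 FPKM. *Taf9b* itself went against the labels in culture, with 0.537, 0.516, 1.96 and 1.37 FPKM in the WT-labelled libraries of ES cells and day 2, 4 and 6 EBs and 3.06, 4.08, 4.27 and 4.01 FPKM in the KO-labelled ones. Spinal column gave 6.65 FPKM under the WT label and 3.31 FPKM under the KO label, and spinal cord 7.44 FPKM. Other genes differed too: at day 6 the motor neuron gene *Isl1* had 10.96 and 0.549 FPKM under the WT and KO labels, and the pluripotency gene *Pou5f1* 198 and 543 FPKM. By qRT-PCR and immunostaining, which were not analysed here, the study reports lower motor neuron markers and retained pluripotency markers in *Taf9b* KO EBs. Every direction below refers to the labels alone. The ES cell library labelled WT is listed in a second table, beside spinal cord, with all members higher there by a factor of 1.09, as are all genes, so ratios between tables carry offsets of at least this kind.

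The ChIP-seq peak lists hold 10415 TAF9B peaks and 8620 POL2 peaks, each with a MACS score, and the IgG control was not analysed here. A peak was placed at a TSS when its midpoint lay within 500 bp of the start of a protein-coding transcript of GENCODE M1 in build mm9. A TAF9B peak lay at a TSS of 11 of the 33 members (33.3%, 95% Wilson interval 19.8 to 50.4%), and POL2 at a TSS of 26 (78.8%, 62.2 to 89.3%). Among the 11100 genes above 1 FPKM in a day 6 EB library, the shares were 30.3% for TAF9B and 53.6% for POL2. The TAF9B share of the members thus lay close to that of expressed genes, with the wider share inside the interval, and the POL2 share was higher, with the wider share below the interval. The shares were not matched for level. In the day 6 library labelled WT the members had a median of 20.3 FPKM, against 11.3 FPKM for all genes above 1 FPKM. The members also include *Med12l*, at 0.473 FPKM there. With POL2 peaks above the median score alone, 15 members remained (45.5%, 29.8 to 62.0%), and the share of expressed genes, 30.6%, lay inside the interval. Intervals cover counting error over genes only, since each factor has 1 peak list.

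The strongest TAF9B peak of the set was at *Med23*, a lower tail subunit that receives signals from the ERK pathway. Its score of 496 ranked it at place 38 of all TAF9B peaks, while the POL2 peak at the same start had a score of only 87.6. Next came *Med24*, also of the lower tail, with 251, and *Ccnc*, the gene of cyclin C, with 246. They were followed by *Med11* of the head with 242, *Med27* of the upper tail with 188, *Med17*, the central subunit of the head, with 162 and *Med30* of the upper tail with 148. The windows of 120 bases around the midpoints of these 7 peaks, all with scores above 100, are shown 5′ to 3′ on the strand of the gene, because they are the member promoters at which TAF9B was mapped most strongly. Capitals mark the motifs, each searched on both strands: TATAAA as a TATA box, CCAAT as the box bound by NF-Y, GGGCGG as the box bound by SP1, CGGAAG as the core of ETS sites, GCATGCG as part of the NRF1 site and ATGGCG as the core of YY1 sites.
*Med23*, chr10:24589653-24589772, + strand: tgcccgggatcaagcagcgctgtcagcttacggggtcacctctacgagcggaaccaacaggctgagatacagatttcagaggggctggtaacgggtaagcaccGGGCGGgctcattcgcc
*Med24*, chr11:98590699-98590818, - strand: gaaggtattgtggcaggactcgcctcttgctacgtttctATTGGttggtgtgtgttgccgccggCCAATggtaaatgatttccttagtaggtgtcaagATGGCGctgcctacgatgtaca
*Ccnc*, chr4:21654784-21654903, + strand: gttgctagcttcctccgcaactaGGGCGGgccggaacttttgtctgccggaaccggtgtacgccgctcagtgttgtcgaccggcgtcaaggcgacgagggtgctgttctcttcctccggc
*Med11*, chr11:70265705-70265824, + strand: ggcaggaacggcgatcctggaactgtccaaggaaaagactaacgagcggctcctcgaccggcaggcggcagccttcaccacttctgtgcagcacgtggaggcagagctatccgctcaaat
*Med27*, chr2:29202278-29202397, + strand: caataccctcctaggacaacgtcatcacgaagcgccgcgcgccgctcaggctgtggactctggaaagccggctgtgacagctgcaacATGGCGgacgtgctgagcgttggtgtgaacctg
*Med17*, chr9:15084348-15084467, - strand: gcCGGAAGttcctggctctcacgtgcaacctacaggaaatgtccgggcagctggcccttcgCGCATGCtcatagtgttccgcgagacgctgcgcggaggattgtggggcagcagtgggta
*Med30*, chr15:52543869-52543988, + strand: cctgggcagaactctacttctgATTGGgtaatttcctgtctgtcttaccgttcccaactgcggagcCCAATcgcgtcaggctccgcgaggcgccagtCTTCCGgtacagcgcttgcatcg

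Of these 7 midpoints 6 lay between 96 bp upstream of the start and the start itself, outside the annotated gene. The exception was *Med11*, where the midpoint lay 343 bp downstream, in an exon. Of the 12 windows around all TAF9B peaks at member starts, 6 held GGGCGG, 3 CCAAT, 3 ATGGCG, 2 CGGAAG, 1 GCATGCG and 0 TATAAA. Among windows of the same length around all 4214 TAF9B peaks at a TSS, the shares were 41.4% for GGGCGG, 31.3% for CCAAT, 9.97% for ATGGCG, 24.0% for CGGAAG, 1.71% for GCATGCG and 1.66% for TATAAA. A match of letters is a description and not a binding site.

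The start of *Ccnc* was also the target of the study's ChIP-qPCR primers. The forward primer gctagcttcctccgcaacta and the reverse primer agactggctgggctgaact match chromosome 4 from 21654787 to 21654936, a product of 150 bp whose midpoint lies 12 bp before the start. All 150 bp lay inside both the TAF9B peak and the POL2 peak, the latter with a score of 421.

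At 4 further members a weaker TAF9B peak lay at a TSS. *Med1*, the middle subunit that binds nuclear receptors, had a pair with scores of 85.6 and 65.6, *Cdk19* had 1 with 79.6, *Med21* of the middle 1 with 62.3 and *Med18* of the head 1 with 50.8, just above the lowest score in the list, 50.04. Of the 11 members with TAF9B at a TSS, 10 also had POL2 there and *Med30* did not. The other 16 members with POL2 had no TAF9B peak at a TSS, and 6 members had neither: *Med12l*, *Med13*, *Med13l*, *Med6*, *Med19* and *Med25*. At members such as *Med20*, *Med22* and *Med29* the POL2 peak cannot be given to the member alone, because a start of *Bysl*, *Rpl7a* or *Paf1*, respectively, lies within 500 bp of the same midpoint.

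*Med13* is without a peak at a TSS by position only. Its POL2 peak, with a score of 274, was centred 659 bp upstream of the only annotated start, on chromosome 11 from 86171453 to 86172073, and TAF9B peaks with scores of 57.9 and 102 were centred 572 and 809 bp upstream. With a window of 1000 bp it joins both counts, which become 12 and 27. Distal TAF9B peaks, over 500 bp and up to 50 kb from the nearest start, were assigned to *Ccnc*, *Cdk8*, *Med13* and *Med31*, which is 12.1% of the members (4.82 to 27.3%) against 19.2% of expressed genes. Of these 4, 3 belong to the kinase module, which is 3 of its 7 genes (42.9%, 15.8 to 75.0%), with the share of expressed genes inside the interval. Some of the peaks behind this count lay near the start, at 572 and 809 bp for *Med13* and 668 bp for *Ccnc*. Others lay at 38401 and 15313 bp, respectively. Inside introns, TAF9B peaks lay in *Cdk8* at a distance of 29728 bp from the start with a score of 162, in *Med13l* with scores of 156 and 61.4, in *Med12l* with 58.5 and 84.4 and in *Med27* with 64.2.

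Promoter sequences, from 250 bases before to 50 after the start, were given by RefSeq (GRCm38.p6) for 28 of the 33 members. None was given for *Med8*, nor for *Med23*, *Med24*, *Med30* and *Cdk19*, which had TAF9B at a TSS. The promoters set beside them were not limited to expressed genes. GGGCGG was found in 18 of them (64.3%) against 35.9% of 27025 promoters, and CGGAAG in 10 (35.7%) against 17.2%. ATGGCG was found in 7 (25.0%) against 9.24% and GCATGCG in 3 (10.7%) against 3.64%. CCAAT was as frequent in members, with 11 (39.3%), as in all promoters, with 37.9%, and TATAAA was found in 3, *Med7*, *Med28* and *Med16* (10.7% against 14.2%).

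Levels of the members spanned a wide range in every library. *Med25*, a lower tail subunit bound by viral and cellular activators, was highest in 7 of the libraries, from 33.4 FPKM in the spinal column library labelled WT to 67.1 FPKM in the day 4 EB library labelled WT. *Med10* of the middle ranked first in the KO-labelled day 4 library and in both day 6 libraries, at 49.4, 63.1 and 68.7 FPKM, and *Med21* in the spinal column library labelled KO, at 67.4 FPKM. *Med12l* was lowest in all of them, and in culture it stayed below 1 FPKM, between 0.296 and 0.992 FPKM, so that it entered only the comparisons with tissue. The median of the members lay between 14.9 and 20.3 FPKM in culture and between 10.5 and 11.7 FPKM in tissue, above the median of all genes over 1 FPKM in each library. Over the 11 libraries *Med15*, a tail subunit that binds SMAD proteins, varied least, from 12.2 to 21.8 FPKM (1.78-fold), and *Med7* of the middle most, from 3.55 to 27.2 FPKM (7.66-fold).

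**Figure D1:**
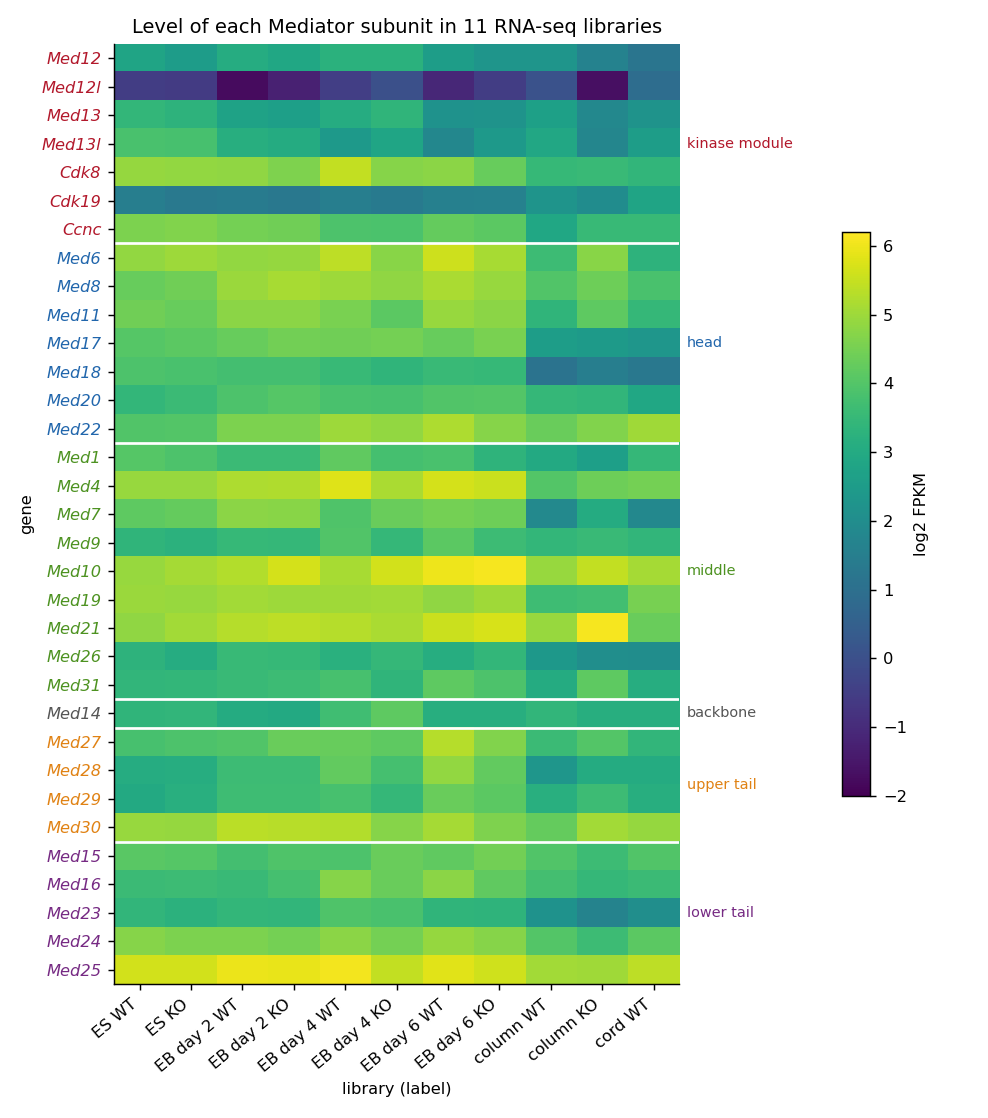
Level of the 33 Mediator subunits (rows, grouped by module) in the 11 RNA-seq libraries (columns, by label), as log2 FPKM in colour. Most rows are darkest in the 3 tissue libraries at the right, and the row of *Med12l* is dark throughout.

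The study asked whether core promoter factors such as TAF9B take part in neuronal gene expression, and the KO and WT labels bear on it. In ES cells the members were almost level between the libraries: 0 of 32 differed past 2-fold, where 1.03% of all 11923 expressed genes did, and the median log2 ratio, KO over WT by label, was 0.00 against 0.02 for all genes. All genes here means those over 1 FPKM on at least 1 side of a pair. The lowest ratio was that of *Med12*, with 6.92 FPKM under the WT label and 5.77 FPKM under the KO label (log2 ratio -0.26), and the highest that of *Med29*, at 7.87 and 9.09 FPKM (0.21). At day 2, 0 of 32 were past 2-fold (2.48% of all genes), with a median of -0.01. *Med10* had the highest ratio, from 38.5 to 51.0 FPKM (0.41), and *Cdk8* the lowest, from 28.8 to 24.6 FPKM (-0.23). All 6 expressed genes of the kinase module were lower in the day 2 library labelled KO, by log2 ratios of -0.23 to -0.09 (49.7% of all genes were lower).

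At days 4 and 6, when many genes differed, the members still stayed within 2-fold. At day 4, 0 of 32 were past it where 16.4% of all 12442 expressed genes were, and at day 6, 0 of 32 where 20.3% of 12879 were. Within that range they leaned to lower values in the libraries labelled KO. At day 4, 23 of 32 were lower (52.2% of all genes were), with a median log2 ratio of -0.14 against -0.03 for all genes, and at day 6, 21 of 32 were lower (50.1%), with a median of -0.16 against 0.00. With a threshold of 1.5-fold, 4 members passed at each day, where 32.0% and 36.6% of all genes did. Marker lists moved far more between the same libraries. At day 6 the summed FPKM of 8 neuron markers was 1065 in the library labelled WT and 138 in that labelled KO, of 5 motor neuron markers 45.0 and 2.88, of 6 pluripotency markers 359.7 and 1000.2 and of 4 simple epithelium markers 145 and 1166, with no marker of these lists listed at 0. What part cell composition has in the member values was not tested, and in bulk libraries fewer cells of a type and less RNA per cell cannot be told apart.

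Among the modules the upper tail had the lowest median ratio at days 4 and 6. All 4 of its genes had lower KO-labelled values at both days, and the module medians were -0.40 and -0.56. *Med28* had 18.8 FPKM under the WT label and 13.7 FPKM under the KO label at day 4, and 29.4 and 18.6 FPKM at day 6 (log2 ratio -0.66). *Med27* was at 19.5 and 17.8 FPKM at day 4 and at 39.0 and 24.9 FPKM at day 6 (-0.64). *Med30* was at 38.3 and 26.0 FPKM at day 4 (-0.56) and at 33.8 and 24.4 FPKM at day 6 (-0.47). *Med29* differed less, at 13.9 and 11.05 FPKM at day 4 (-0.33) and 20.3 and 17.5 FPKM at day 6 (-0.21).

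In the kinase module the members did not move together. *Cdk8* had the lowest ratio of all members at day 4, at 43.6 and 26.4 FPKM (-0.72), and was at 27.2 and 19.7 FPKM at day 6 (-0.46). *Med13l* went the other way, with 5.33 and 6.99 FPKM at day 4 (0.39) and 3.50 and 5.45 FPKM at day 6 (0.64), the highest ratio of any member at that day. At day 4 the highest ratio was that of the backbone gene *Med14*, at 12.7 and 18.1 FPKM (0.51), and at day 6 *Med14* was level at 8.82 FPKM in both. Over the members with TAF9B at a TSS, the median log2 ratio at day 6 was -0.11 (8 of 11 lower), over those with POL2 but no TAF9B -0.22 (11 of 16 lower), and over those with neither 0.03 (2 of 5 lower, *Med12l* being under the expression minimum). The ChIP cells were another line at a later day.

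**Figure D2:**
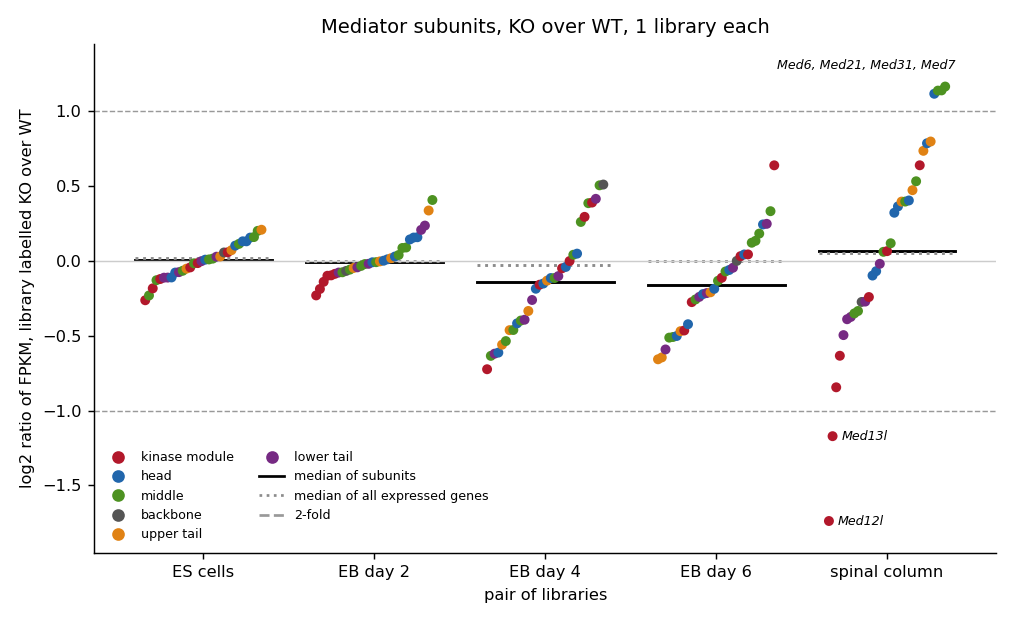
Log2 ratio of FPKM, library labelled KO over library labelled WT (vertical axis), for each expressed Mediator subunit (points, coloured by module and sorted) in 5 pairs of libraries (horizontal axis), with the medians of the subunits and of all expressed genes and dashed lines at 2-fold. All points of the ES cell and EB pairs lie between the dashed lines, and 6 of the 33 points of spinal column lie outside them.

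Spinal column was the pair in which members passed 2-fold. Of 33 members 4 were higher in the library labelled KO and 2 lower, where 8.94% of all 14115 expressed genes were higher and 8.56% lower. Of any size, 2 of 7 kinase genes, 5 of 7 head, 7 of 9 middle, 4 of 4 upper tail and 0 of 5 lower tail genes were higher (53.1% of all genes). *Med7*, a middle subunit on chromosome 11 from 46250427 to 46256223, had 3.64 FPKM under the WT label and 8.17 FPKM under the KO label (log2 ratio 1.17). *Med21*, its partner in the hinge of the middle module, was at 30.6 and 67.4 FPKM (1.14). *Med31*, a small middle subunit, was at 8.21 and 18.1 FPKM (1.14), and *Med6* of the head at 12.2 and 26.6 FPKM (1.12). On the lower side, *Med12l* was at 1.05 and 0.316 FPKM (-1.74) and *Med13l* at 7.56 and 3.36 FPKM (-1.17). *Med12l* passed the expression minimum only through the library labelled WT.

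These ratios went with the length of the transcript. All 12 members with transcripts under 2000 bases were higher under the KO label (median 0.50), and 1 of the 10 with 4000 bases or more was, with a median of -0.42. All expressed genes had medians of 0.56 and -0.44 in these length classes. Across the 33 members Spearman's rho of ratio and length was -0.79, and across 12173 genes -0.60. These are correlations across genes of the same pair of libraries, and genes are not replicates. With the length trend of all genes removed, a setting chosen after seeing the data, the kinase module no longer stood below the head, middle and upper tail, with 5 of 7, 5 of 7, 4 of 9 and 1 of 4 genes higher. The lower tail stayed at 0 of 5 higher, with a median of -0.25. *Med7* alone stayed past 2-fold, with a log2 ratio of 1.02, while 4.02% of all genes were higher and 5.29% lower past 2-fold. Cell type markers also differed in this pair: the 8 neuron markers summed to 1102 FPKM in the library labelled WT and 613 in that labelled KO, all 8 being lower, and the measured erythroid markers to 21.0 and 35.2. Skeletal muscle markers summed to 13483 and 5460 FPKM, with *Acta1* listed at 0 in both, *Myh8* in the library labelled WT and *Ckm* and *Mylpf* in that labelled KO. The sums thus rest on genes listed at 0 on one side. With values in both libraries, *Myh3* was at 420 and 218 FPKM and *Tnnt3* at 2927 and 4489 FPKM, in opposite directions. What part tissue composition has in the member values was not tested.

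**Figure D3:**
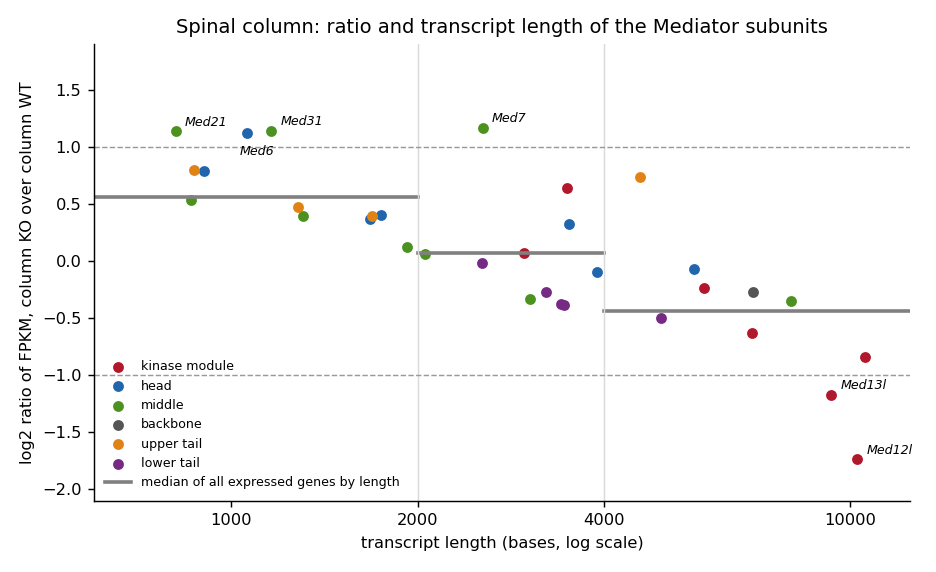
Log2 ratio of FPKM in spinal column, library labelled KO over WT (vertical axis), against transcript length in bases on a log axis (horizontal axis) for the 33 Mediator subunits, coloured by module. Grey bars give the median of all expressed genes under 2000, from 2000 to 4000 and from 4000 bases, and the points descend with length along them.

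Along differentiation the modules differed. From ES cells to day 6 EBs labelled WT, 6 of 32 members were past 2-fold higher (22.9% of 12916 genes) and 2 lower (15.1%), with a median log2 ratio of 0.25 against 0.20 for all genes. The upper tail held 3 of the 6: its median was 1.41, and its summed FPKM went from 61.3 to 122. Over the same span the neuron markers went from 198 to 1065 FPKM in sum, the motor neuron markers from 0.484 to 45.0 and the pluripotency markers from 1829 to 359.7, and their part in the member values was not tested. *Med28* had 8.53 FPKM in ES cells, followed by 12.2, 18.8 and 29.4 FPKM at days 2, 4 and 6 (log2 ratio of day 6 over ES cells 1.78). *Med27* was at 14.2, 15.8, 19.5 and 39.0 FPKM (1.46), most of the difference falling between days 4 and 6. *Med29* was at 7.87, 12.7, 13.9 and 20.3 FPKM (1.37). *Med30*, of the same module, was highest at day 2, with 41.0 FPKM, and ended at 33.8 FPKM against 30.7 in ES cells (0.14).

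In the series labelled KO the same genes were also highest at day 6, with smaller ratios to ES cells. *Med28* had 8.71, 12.3, 13.7 and 18.6 FPKM over the 4 points (1.10). *Med27* was at 14.9, 20.0, 17.8 and 24.9 FPKM (0.74) and *Med29* at 9.09, 12.7, 11.05 and 17.5 FPKM (0.95). Between the series, the log2 ratio of KO over WT by label was 0.03 for *Med28*, 0.07 for *Med27* and 0.21 for *Med29* in ES cells. At day 2 *Med27* was higher under the KO label (0.34), and at days 4 and 6 all of these genes were lower under it. Whether these courses differ beyond the spread of replicates cannot be tested with 1 library each.

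The other members past 2-fold at day 6 lay in different modules. *Med22* of the head had 15.8, 24.0, 31.9 and 36.9 FPKM over the same 4 points (1.22). *Med16*, whose product forms a submodule of the tail with MED23 and MED24, was at 12.1 and 11.8 FPKM in ES cells and at day 2 and at 26.1 and 27.5 FPKM at days 4 and 6 (1.19), and it was the only member past 2-fold between days 2 and 4 (log2 ratio 1.15, with 15.6% of 12452 genes higher). *Med10* was at 30.9, 38.5, 34.8 and 63.1 FPKM (1.03). At single steps the differences were smaller: between ES cells and day 2, 0 of 32 members passed 2-fold (13.1% of 12170 genes), and between days 4 and 6, 0 of 32 did (26.9% of 12681).

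On the lower side stood the large subunits of the kinase module, which link it to the core. *Med13l* was at 14.3, 8.77, 5.33 and 3.50 FPKM (-2.03), and in the series labelled KO at 14.2, 8.19, 6.99 and 5.45 FPKM (-1.38). *Med13* was at 10.7, 6.56, 8.43 and 4.49 FPKM (-1.26), and in the series labelled KO at 9.89, 6.14, 10.3 and 4.60 FPKM (-1.11). In that series *Med13* (-1.17) and *Med14* (-1.04) were the members past 2-fold between days 4 and 6, with 11% of 12900 genes lower, and *Med14*, at 7.85, 18.1 and 8.82 FPKM at days 2, 4 and 6, was the member past it between days 2 and 4 (1.21, with 15.5% of 12548 genes higher). The step of *Med13l* from day 4 to 6 in the series labelled WT, -0.61, became 0.21 with the length trend removed, and its step from day 2 to 4, -0.72, became -1.21, past 2-fold. Correction for it put *Med13* at -0.06 and *Med14* at -0.41 between days 4 and 6 and *Med14* at 0.66 between days 2 and 4, all within 2-fold. *Cdk19* hardly moved, between 2.67 and 2.97 FPKM in the series labelled WT. These ratios also went with transcript length, with rho of -0.50 across the members and -0.27 across all genes for day 6 over ES cells. With the length trend removed, *Med28* (1.81), *Med22* (1.10), *Med16* (1.04), *Med27* (1.01) and *Med13l* (-1.26) stayed past 2-fold and *Med29*, *Med10* and *Med13* did not.

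**Figure D4:**
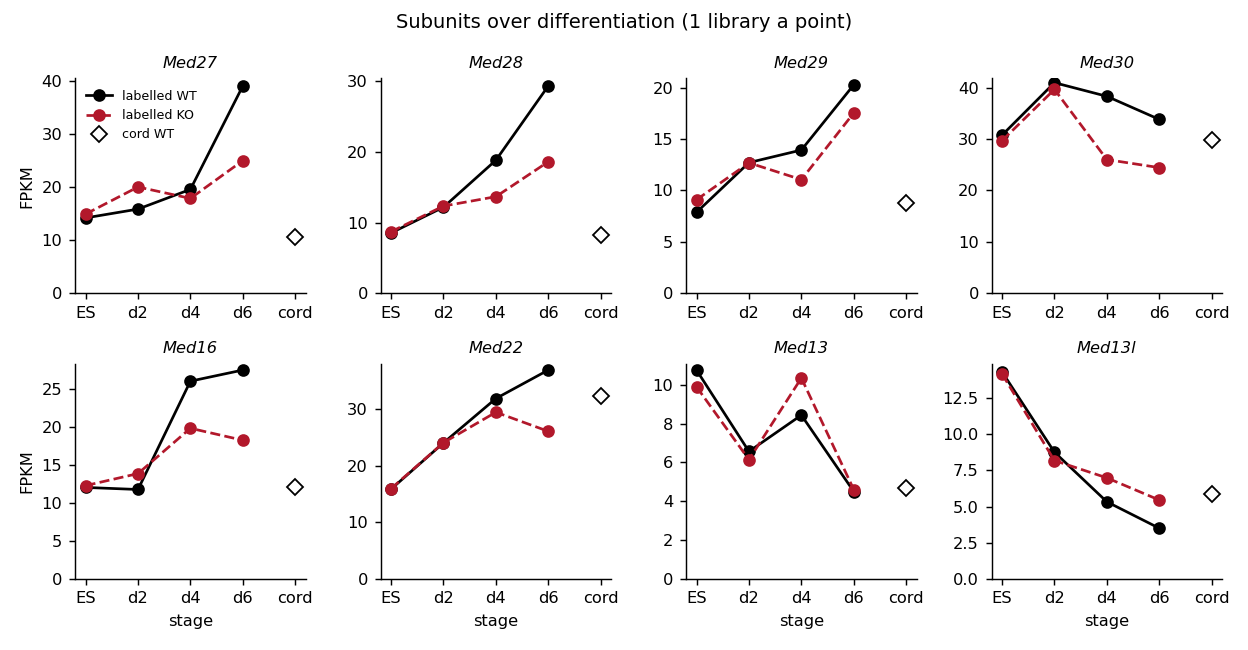
FPKM (vertical axes, from 0) of 8 Mediator subunits in ES cells and at days 2, 4 and 6 of EB differentiation (horizontal axes), with the libraries labelled WT in black, those labelled KO in red and newborn spinal cord as an open diamond. Lines join single libraries, and *Med27* and *Med28* part at day 6, at 39.0 against 24.9 and 29.4 against 18.6 FPKM.

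The paralogs of the kinase module differed between culture and tissue. The share of *Cdk19* in the summed FPKM of *Cdk8* and *Cdk19*, a measure that does not depend on library scaling, was 6.16 to 13.4% in the 8 culture libraries, 29.6 and 25.4% in spinal column labelled WT and KO, and 39.4% in spinal cord. *Cdk8* was at 19.7 to 43.6 FPKM in culture and 10.6 to 11.7 FPKM in tissue, while *Cdk19* was at 2.43 to 3.06 FPKM in culture and at 3.97, 4.69 and 6.87 FPKM in tissue, so the tissue libraries did not overlap the culture libraries for either gene. Of all 15795 genes above 1 FPKM in any library, 25.5% were lower in every tissue library than in every culture library and 19.1% higher. The share of *Med12l* in *Med12* and *Med12l* was 3.43 to 12.5% in culture, 18.0 and 9.25% in spinal column labelled WT and KO, and 46.0% in spinal cord, where *Med12* was at 2.26 FPKM and *Med12l* at 1.92 FPKM. The 2 spinal column libraries thus lay on either side of the highest culture values for this pair. *Med13l* made up 38.7 to 58.9% of *Med13* and *Med13l* in culture and 48.6 to 55.8% in tissue, with the lowest shares at day 4, so tissue and culture overlapped.

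**Figure D5:**
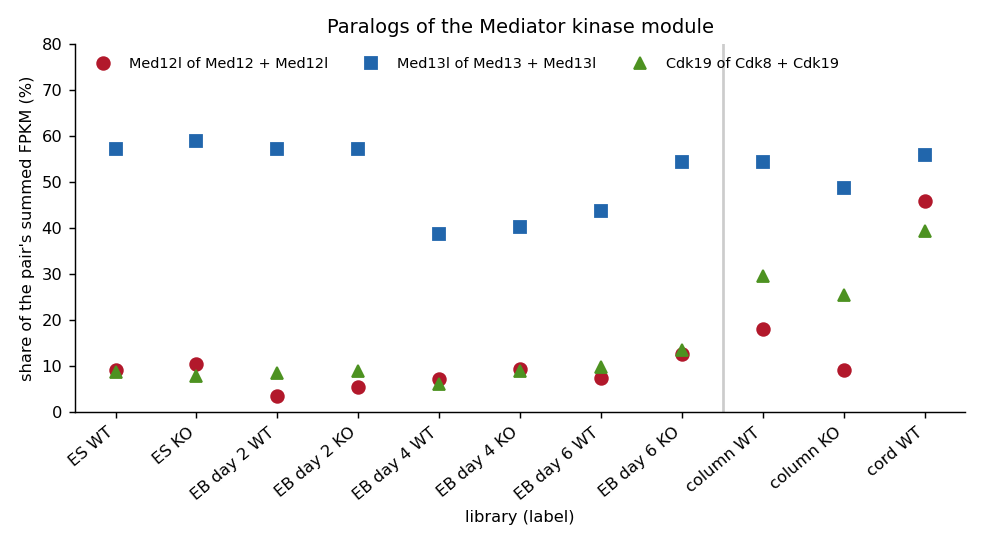
Share (vertical axis, %) of *Med12l*, *Med13l* and *Cdk19* in the summed FPKM of each paralog pair in the 11 libraries (horizontal axis, by label), with a line between culture and tissue. *Cdk19* lies at 6.16 to 13.4% left of the line and at 25.4 to 39.4% right of it, and *Med13l* shows no such step.

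Newborn tissue held the lowest levels of most members. Of the 33, 27 had their lowest value of the 11 libraries in a tissue library (47.1% of all 15795 genes), 10 of them in spinal cord (20.9%), and 11 had their highest in the day 6 library labelled WT (9.48%). Against ES cells 28 members were lower in spinal cord (54.8% of all genes), 12 of them past 2-fold (35.7% of 14237 genes) and 2 higher past it (30.3%), *Med12l* (1.34) and *Cdk19* (1.15, or 0.97 with the length trend removed). The lowest were *Med18*, *Med7*, *Med17*, *Med12*, *Med6* and *Cdk8*, with log2 ratios of -2.75 to -1.63. From ES cells to cord the pluripotency markers went from 1993 to 9.36 FPKM in sum and the neuron markers from 216 to 2284. The astrocyte markers went from 7.08 to 358 FPKM, and the part of such differences in the member values was not tested. *Med18*, at 10.2 to 15.0 FPKM in culture, was at 2.20 and 2.84 FPKM in spinal column labelled WT and KO and at 2.43 FPKM in cord, and *Med7*, at 15.2 to 27.2 FPKM in culture, was at 3.64, 8.17 and 3.55 FPKM. *Med17*, at 16.3 to 23.5 FPKM in culture, was at 5.98, 5.59 and 4.98 FPKM. These 3 are among 14 of 33 members that were lower in every tissue library than in every culture library (25.5% of all genes), and *Cdk19* was the 1 member higher in every tissue library (19.1%).

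Compared with day 6 EBs, spinal cord had lower levels of head, middle and tail genes. Spinal cord over day 6 EBs labelled WT, set across tables that were normalized separately, gave 18 members lower past 2-fold (34.4% of 14133 genes) and 2 higher (26.0%), with a member median of -1.07 against -0.38 for all genes. All 7 head genes, all 9 middle genes and all 9 tail genes were lower, and of the kinase module 3 of 7 were (58.3% of all genes), with *Med12l* (2.02), which passed the expression minimum only through cord, and *Cdk19* (1.21) past 2-fold higher. After removal of the length trend 5 of 7 kinase genes were lower and *Med19* of the middle (0.24) and *Med30* of the upper tail (0.63) higher. By 2-fold, 11 members were past 2-fold lower and 0 higher, *Med12l* being at 0.99 and *Cdk19* at 0.76, and with centring on the median of all genes 8 were lower and 3 higher. Spinal column and spinal cord labelled WT differed little by comparison: *Med12* was the only member past 2-fold, at 4.81 and 2.26 FPKM (log2 ratio 1.09, or 0.83 with a pseudocount of 1 FPKM, with 17.3% of 14077 genes higher), and the median was 0.02. The pluripotency markers summed to 359.7 FPKM in the day 6 library labelled WT, after 30.5 FPKM at day 4, and to 9.36 FPKM in cord, and the spinal column library held muscle and bone markers, so cell composition differs in these pairs, along with stage between culture and tissue, and its part was not tested.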

How the data were processed

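RNA-seq of poly-A RNA (11 libraries, 6 tables) and ChIP-seq peak lists (TAF9B and POL2) were analysed, with samples grouped by their GEO labels. The authors aligned reads with TopHat to RefSeq genes and took FPKM values from Cuffdiff, which were used as deposited. Peaks were called by the authors with MACS on Bowtie alignments to mm9, and the score in the deposited lists was used unchanged. Tool versions are not given in the sources used here. The authors' columns of fold changes and p-values were not used, and the IgG library was not analysed here.

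Each table holds 23152 loci, of which 43 could not be told apart between tables and were left out. Symbols came from RefSeq accessions (22728 loci) or, with at least 80% reciprocal overlap, from GENCODE M1 genes of the same build (215 loci, *Med6* among them), and 166 loci stayed without a symbol. Of several loci of a gene, the one with the highest mean was used. Log2 ratios have no pseudocount. A gene was expressed above 1 FPKM in at least 1 library of a pair and was counted past 2-fold. With 1 library a condition and no read counts, no test was possible and the precision of a value is unknown. The length trend was a lowess fit over all expressed genes (fraction 0.3) on log10 transcript length. Peak shares carry 95% Wilson intervals.

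The rule for the members uses symbols alone, but it and the gene lists were proposed with earlier results of these data known. Every member could be named, and described are mainly members past 2-fold, those with the highest and lowest ratio of a pair, the paralog pairs and members with TAF9B peaks. Some members past 2-fold in spinal cord, such as *Med4*, *Med8* and *Med26*, were only counted. Counting was tested on simulated data. Other pseudocounts, minimums, centring, thresholds, locus choice and peak windows were tried. Computations used Python 3.11.15, pandas, statsmodels and pysam.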

Additional observations from a re-analysis of the deposited data

Results flagged for a closer look

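For 4 members past 2-fold in spinal column, the log2 ratio of the library labelled KO over that labelled WT had the opposite sign in day 6 EBs. These are 4 of the 5 members past 2-fold that were also expressed at day 6, and of all 1605 genes past 2-fold and expressed at day 6, 43.5% had opposite signs. *Med13l* was at -1.17 in spinal column and 0.64 at day 6. *Med6* was at 1.12 and -0.42, *Med31* at 1.14 and -0.26, and *Med7* at 1.17 and -0.07. With the length trend removed, a setting chosen after seeing the data, the spinal column values were -0.27 for *Med13l*, 0.42 for *Med6*, 0.50 for *Med31* and 1.02 for *Med7*, so *Med7* alone stayed past 2-fold. The opposite signs also rest on the culture labels, which *Taf9b* went against. Because the 4 were picked for opposite signs, an exchange of these labels would necessarily give them the same sign. It would give opposite signs to *Med21*, the remaining member, at 1.14 in spinal column and 0.13 at day 6. At day 6 *Isl1* had 10.96 and 0.549 FPKM under the WT and KO labels, and *Pou5f1* 198 and 543 FPKM. An exchange was not tested. Each value rests on 1 library a side, so the difference between tissue and EBs was not tested.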

How the results depend on the processing

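The precision of every value is limited by 1 library a condition with unknown depth, and the direction of each KO over WT ratio rests on labels that *Taf9b* went against in culture. No paired analysis was possible because each group has 1 library, and leaving out a replicate was not possible for the same reason. The identity of the paralog proteins was not run.

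With a threshold of 1.5-fold, the members past it numbered 4 at day 4 and 4 at day 6 in the KO over WT pairs (0 at 2-fold in both; 32.0% and 36.6% of all genes at 1.5-fold), 12 in spinal column (6 at 2-fold; 41.0%), 6 at day 2 over ES cells (0; 28.6%), 8 at day 4 over day 2 (1; 47.6%), 7 at day 6 over day 4 (0; 48.4%), 14 at day 6 over ES cells (8; 59.2%) and 8 in spinal column over cord (1; 53.6%), the last 5 in libraries labelled WT, and 4 and 5 in the libraries labelled KO at day 4 over day 2 (1; 42.3%) and day 6 over day 4 (2; 43.3%). With a pseudocount of 1 FPKM, 3 members passed 2-fold in the spinal column pair, 0 in spinal column over cord and 1 at day 6 over day 4 labelled KO. With no filter on low values, *Med12l* added 1 call at day 2 over ES cells (1 in all) and at day 4 over day 2 labelled WT and KO (2 each). With only genes above 5 FPKM, 0 members passed in spinal column over cord. Centring on the median of all genes gave 1 at day 6 over day 4 labelled WT and 11 in cord over day 6 EBs (20 without it). With the length trend removed, chosen after seeing the data, the counts were 1 in the spinal column pair, 2 at day 4 over day 2 and 5 at day 6 over ES cells labelled WT, 11 in cord over day 6 EBs, and 0 at day 4 over day 2 and at day 6 over day 4 labelled KO. With peaks above the median score, 15 members had POL2 at a TSS (26 with all peaks; 30.6% of expressed genes). Of 117 such recomputed counts and shares, the other 91 stayed within 1.5 times. Of these, 17 come from summing the loci of a gene, which cannot alter members with a single locus. Of 336 recomputed ratios of members past 2-fold, 51 came within 2-fold, with the length trend removed 23 of 53. Only removal of the length trend could change the sign of such a ratio, and it did so for none of the 53. Of 87 recomputed medians 1 was labelled as moved, that of the members in cord over ES cells, to -0.31 with centring (-0.57 without). The limit behind this label is not given, and the label does not mean that the other medians stayed level. Centring subtracts the median of all genes, which was -0.27 in cord over ES cells and -0.38 in cord over day 6 EBs. The shift was thus larger in cord over day 6 EBs, whose median was not labelled as moved.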

Other observations

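The machinery that Mediator contacts was set beside it in the same libraries. In cord over ES cells, 8 of 12 RNA polymerase II subunit genes, 13 of 17 general transcription factor genes and 6 of 7 genes of cohesin and its loader were past 2-fold lower, with medians of -1.52, -1.67 and -1.50, beside 12 of 33 Mediator genes with a median of -0.57 and 35.7% of all expressed genes.

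In the spinal column pair, the RNA polymerase II genes had a median log2 ratio, KO over WT by label, of 0.86, with 10 of 12 higher (53.1% of all genes), and 2 of them past 2-fold higher (8.94%). *Polr2a*, which encodes the largest subunit and has a long transcript, was past 2-fold lower, at -1.36 (8.56% of all genes). With the length trend of all genes removed, a setting chosen after seeing the data, the median was 0.06, with 8 of 12 higher and 0 past 2-fold. At day 6, 9 of the 12 were lower (50.1% of all genes) and 0 of 12 past 2-fold, with a median of -0.12, beside -0.16 for the Mediator genes and 20.3% of all expressed genes past 2-fold.

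A TAF9B peak lay at a TSS of 5 of 12 RNA polymerase II genes (41.7%, 95% Wilson interval 19.3 to 68.0%), 8 of 17 general transcription factor genes (47.1%, 26.2 to 69.0%), 3 of 12 elongation factor genes with an annotated start (25.0%, 8.89 to 53.2%) and 1 of 7 genes of cohesin and its loader (14.3%, 2.57 to 51.3%). The intervals overlap one another and that of the Mediator genes.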
